A study of Mus musculus with 20 samples.

Results

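The Schlafen genes are a family of interferon-linked growth and antiviral regulators, and 7 mouse members were followed here in cultured kidney tubule cells. The members were Slfn1, Slfn2, Slfn3, Slfn4, Slfn5, Slfn8 and Slfn9, taken as the rows of the deposited count table whose mouse Ensembl gene ID maps to those symbols. All 7 were found among 55891 gene IDs. RNA was sequenced from primary renal tubular epithelial cells (TEC), isolated from kidneys of the strain B6.129-Ptprz1tm1Nmo and grown in medium with EGF and hormones. The 20 libraries formed 4 groups of 5. They were Ptprz1 KO cells given LPS (100 ng/mL) with IFNγ (10 ng/mL) for 24 h, KO cells left untreated, heterozygous (het) cells given the same LPS+IFNγ, and het cells left untreated. Both genotypes carry the targeted Ptprz1 allele (on 1 chromosome copy in het cells), so no wild-type cells entered any comparison. LPS is a bacterial cell wall product and IFNγ a lymphocyte cytokine, and Ptprz1 encodes a receptor-type tyrosine phosphatase. The comparisons ask how the family responded to stimulation, and whether it differed between KO and het cells.

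Schlafen proteins share an N-terminal core that binds or cuts RNA in several members. The short mouse proteins (Slfn1, Slfn2) consist of little more than this core, Slfn3 and Slfn4 are of intermediate size, and the long proteins (Slfn5, Slfn8, Slfn9) add a helicase-like part. Slfn2 holds mouse T cells and monocytes in quiescence and shields transfer RNAs from stress-induced cleavage. Slfn1 restrains growth of mouse thymocytes, Slfn4 is best known from mouse myeloid cells, Slfn3 was studied in rodent intestinal epithelium, and Slfn5 acts in the nucleus. Several Schlafen genes are induced by interferons, whose receptors act through JAK kinases, STAT proteins and IRF transcription factors. IRF-containing complexes bind promoter elements of the ISRE (interferon-stimulated response element) type, and STAT dimers bind elements of the GAS (gamma-activated site) type.

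The promoters of the 4 members with measurable expression are shown because these genes moved together. All 7 members lie in 1 cluster on chromosome 11, and the windows are RefSeq sequences of the build GRCm38.p6, running from 250 bases before to 50 bases after the annotated start on the gene's own strand. Slfn2 is at chr11:83064862-83065161 (+ strand), Slfn5 at chr11:82951852-82952151 (+ strand), Slfn8 at chr11:83020761-83021060 (- strand, the first of 2 annotated windows) and Slfn9 at chr11:82991781-82992080 (- strand). Capitals mark ISRE-type matches in Slfn5, Slfn8 and Slfn9, and a 9-base word shared with other members in Slfn2.
Slfn2: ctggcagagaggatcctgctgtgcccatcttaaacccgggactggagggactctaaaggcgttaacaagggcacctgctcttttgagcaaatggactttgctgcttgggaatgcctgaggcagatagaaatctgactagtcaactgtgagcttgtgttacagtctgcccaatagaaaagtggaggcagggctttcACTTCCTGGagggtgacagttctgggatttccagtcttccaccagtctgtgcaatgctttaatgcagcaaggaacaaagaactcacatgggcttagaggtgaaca
Slfn5: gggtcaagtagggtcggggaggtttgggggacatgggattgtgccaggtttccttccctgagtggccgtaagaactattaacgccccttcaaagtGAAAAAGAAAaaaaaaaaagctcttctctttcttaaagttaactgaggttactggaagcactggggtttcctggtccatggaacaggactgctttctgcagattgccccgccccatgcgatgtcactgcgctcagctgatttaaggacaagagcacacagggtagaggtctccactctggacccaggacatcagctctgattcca
Slfn8: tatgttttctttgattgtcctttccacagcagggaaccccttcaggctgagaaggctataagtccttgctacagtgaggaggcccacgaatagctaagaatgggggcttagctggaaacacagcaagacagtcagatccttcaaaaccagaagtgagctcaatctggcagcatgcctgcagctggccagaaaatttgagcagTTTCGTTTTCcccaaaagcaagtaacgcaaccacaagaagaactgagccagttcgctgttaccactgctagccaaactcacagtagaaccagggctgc
Slfn9: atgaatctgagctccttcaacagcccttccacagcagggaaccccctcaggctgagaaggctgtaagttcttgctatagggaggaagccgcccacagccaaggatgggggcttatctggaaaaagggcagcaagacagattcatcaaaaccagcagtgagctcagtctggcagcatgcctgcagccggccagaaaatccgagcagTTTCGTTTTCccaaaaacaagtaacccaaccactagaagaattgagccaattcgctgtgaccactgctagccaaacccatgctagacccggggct

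The ISRE-type letters searched were GAAA, any 2 bases and GAAA again, on both strands. They occur in 3.44% of the 32851 RefSeq promoter windows, and in at least 1 window of 3.99% of the 27025 genes. They were present in 3 of 7 members. Slfn5 had GAAAAAGAAA on its own strand at -155 to -146 from the start base (counted as 0). Slfn8 had TTTCGTTTTC, a match on the opposite strand, at -48 to -39, and Slfn9 had the same 10 letters at -45 to -36. The Slfn8 and Slfn9 windows were 80.8% identical in alignment, while every other pair of members, compared in the same way, was at 53.0% or less. The GAS-type letters, TTC, any 3 bases and GAA, present in 8.30% of windows and 9.55% of genes, were in none of the 7. ACTTCCTGG, looked for only after the windows were read, is the longest word common to the windows of Slfn1, Slfn2, Slfn3 and Slfn4. It was picked because all 4 hold it on the gene's strand, between -74 and -34, so its presence there is no result. Of all windows 0.843% hold it on either strand, and this share is no yardstick for a word found by such a search. No match of 1 of these 3 words overlapped a match of another. A match describes letters in the window and was not tested as a binding site.

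The 4 libraries of animals 8 and 4 went against their stimulation labels. In animal 8 (KO replicate 4), Nos2, the inducible nitric oxide synthase, was at 0 CPM (counts per 1000000 of a library's total) in the library labelled LPS+IFNγ, and at 199.9 CPM in the one labelled control. In animal 4 (het replicate 5), Nos2 was likewise at 0 CPM in the library labelled LPS+IFNγ and at 85.3 CPM in the one labelled control. Gbp2, an interferon-induced GTPase, gave the same order, with 13 against 1472 CPM in animal 8 and 13.1 against 496 CPM in animal 4. In the other 16 libraries, Nos2 spanned 1223 to 3400 CPM in KO stimulated and 1494 to 3136 CPM in het stimulated libraries, and at most 0.233 CPM in controls. The Nos2 and Gbp2 levels of the 2 control-labelled libraries were thus above every other control and below every other stimulated library. The tests are given with all 20 libraries as labelled and again without these 4, and the set of libraries is named with each value. The 4 were set aside on genes of the same interferon response, so leaving them out moves correlated genes toward larger differences, and the result without them is not independent of this choice.

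Library totals ran from 12899528 to 20411411 counts, with a median of 17431039. Ptprz1 itself had 0 to 7 counts in KO libraries, 13 of 15 of them in the 2 libraries of animal 8, and 0 to 4 in het libraries, so its level did not check the genotype labels. All 8 renal epithelial markers were detected in every library (summed 418 to 2041 CPM), although Epcam was as low as 0.155 CPM. The 8 proximal tubule markers summed to 21.4 to 511 CPM, the 6 fibroblast markers to 29.2 to 13530 CPM and the 5 endothelial markers to 1.09 to 16.5 CPM. The 13 leukocyte markers summed to 5.15 to 22.2 CPM in 16 libraries. The other 4 came from het animals 9 and 1, with 244 and 69.5 CPM in the stimulated and 379 and 97.5 CPM in the control libraries, while the T-cell marker Cd3e was at 0 in all 20. Animals 5 and 7 are listed under both genotypes. In such bulk samples, a change in the share of a cell type and a change in RNA per cell cannot be told apart.

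Slfn2 was the main Schlafen transcript of these cells in every library, and Slfn2, Slfn5, Slfn8 and Slfn9 were all higher in stimulated cells of both genotypes once the 4 contradictory libraries were left out. With all 20 libraries as labelled, none of the 4 passed the test. Slfn1, Slfn3 and Slfn4 were at or below a floor of 3 counts (0.147 to 0.233 CPM depending on the library) in 16, 15 and 19 of 20 libraries. They failed the low-count filter, so 4 of 7 members entered the fit across all genes.

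Among the short members, Slfn2 responded from a measurable base. In KO cells it was at 212, 202, 161, 27.4 and 186 CPM in libraries labelled LPS+IFNγ (replicates 1 to 5), against 30.8, 37.5, 36.3, 88.6 and 17.3 CPM in controls. In het cells it was at 226, 187, 170, 207 and 37.6 CPM in libraries labelled LPS+IFNγ, against 17.8, 32.1, 38.5, 7.78 and 60.0 CPM in controls. In each genotype 1 stimulated-labelled library lay inside the control range, and these were the libraries of animals 8 and 4. All other stimulated libraries stood above every control. With 20 libraries the log2 fold change was 1.95 ± 0.61 (SE) in KO and 2.50 ± 0.63 in het cells, with edgeR adjusted p = 0.338 and 0.105. Without animals 4 and 8 it was 2.69 ± 0.41 in KO (adjusted p = 0.000658) and 3.13 ± 0.42 in het cells (adjusted p = 0.000177).

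Among the long members, Slfn9 was the most abundant and followed the same order. It was at 122, 123, 86.0, 11.7 and 113 CPM in KO libraries labelled LPS+IFNγ, against 11, 7.37, 7.13, 44.7 and 9.61 CPM in KO controls. In het cells the values were 90.8, 123, 96.9, 138 and 8.07 CPM in libraries labelled LPS+IFNγ, against 9.50, 6.87, 16.2, 4.73 and 21.6 CPM in controls. Outside animals 4 and 8, every stimulated library stood above every control in both genotypes. The log2 fold change with 20 libraries was 2.56 ± 0.73 in KO (edgeR adjusted p = 0.321) and 3.05 ± 0.75 in het cells (adjusted p = 0.105). Without the 4 libraries it was 3.73 ± 0.32 in KO (adjusted p = 2.28e-06) and 3.70 ± 0.32 in het cells (adjusted p = 2.25e-06).

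Slfn8, another long member, was under 1 CPM in all controls but 1 and reached 17.7 CPM under stimulation. KO libraries labelled LPS+IFNγ had 8.04, 13.4, 10.1, 0.195 and 15.8 CPM, against 0.299, 0.366, 0.287, 1.54 and 0.620 CPM in KO controls. Het libraries labelled LPS+IFNγ had 5.32, 11.8, 4.22, 17.7 and 0.212 CPM, against 0.147, 0.186, 0.282, 0.231 and 0.974 CPM in het controls. The groups overlapped only through the libraries of animals 4 and 8. With 20 libraries the log2 fold change was 3.98 ± 0.99 in KO (edgeR adjusted p = 0.321) and 4.49 ± 1.02 in het cells (adjusted p = 0.105). Without the 4 libraries it was 4.98 ± 0.47 in KO (adjusted p = 5.40e-06) and 5.59 ± 0.49 in het cells (adjusted p = 2.45e-06). Slfn8 and Slfn9 are near-identical in part: 19.1% of the distinct 31-base words of Slfn8 transcripts also occur in Slfn9, and 18.7% in the pseudogene Slfn10-ps. Counts could therefore be split between them, and the separate values of Slfn8 and Slfn9 are uncertain.

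Slfn5, the nuclear long member, was nearly absent from controls outside animals 4 and 8. Of the 4 tested members it had the widest relative spread in stimulated het libraries outside animal 4. In stimulated KO libraries outside animal 8, Slfn8 had a wider one (coefficient of variation 29.3%, against 19.0% for Slfn5). KO libraries labelled LPS+IFNγ had 25.7, 19.9, 16.3, 0.195 and 20.1 CPM, against 0.0597, 0, 0.0575, 4.07 and 0.0775 CPM in KO controls. Het libraries labelled LPS+IFNγ had 70.1, 16, 6.49, 125 and 0.319 CPM, against 0.637, 0, 0, 0.288 and 0.860 CPM in het controls. The 4 stimulated KO libraries outside animal 8 lay close together, while those of het cells outside animal 4 spread from 6.49 to 125 CPM. With 20 libraries the log2 fold change was 4.30 ± 1.44 in KO (edgeR adjusted p = 0.341) and 6.97 ± 1.63 in het cells (adjusted p = 0.105). Without the 4 libraries edgeR gave adjusted p = 0.000255 in KO and 0.000125 in het cells, but the KO controls then held only 3 counts of Slfn5 in all and the het controls 18. The pooled ratio was 452 in KO (exact 95% interval 154 to 2194) and 206 in het cells (130 to 349), and these intervals cover counting error only. By limma-voom on the same 16 libraries Slfn5 lost its call, with adjusted p = 0.259 in KO and 0.149 in het cells.

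**Figure D1:**
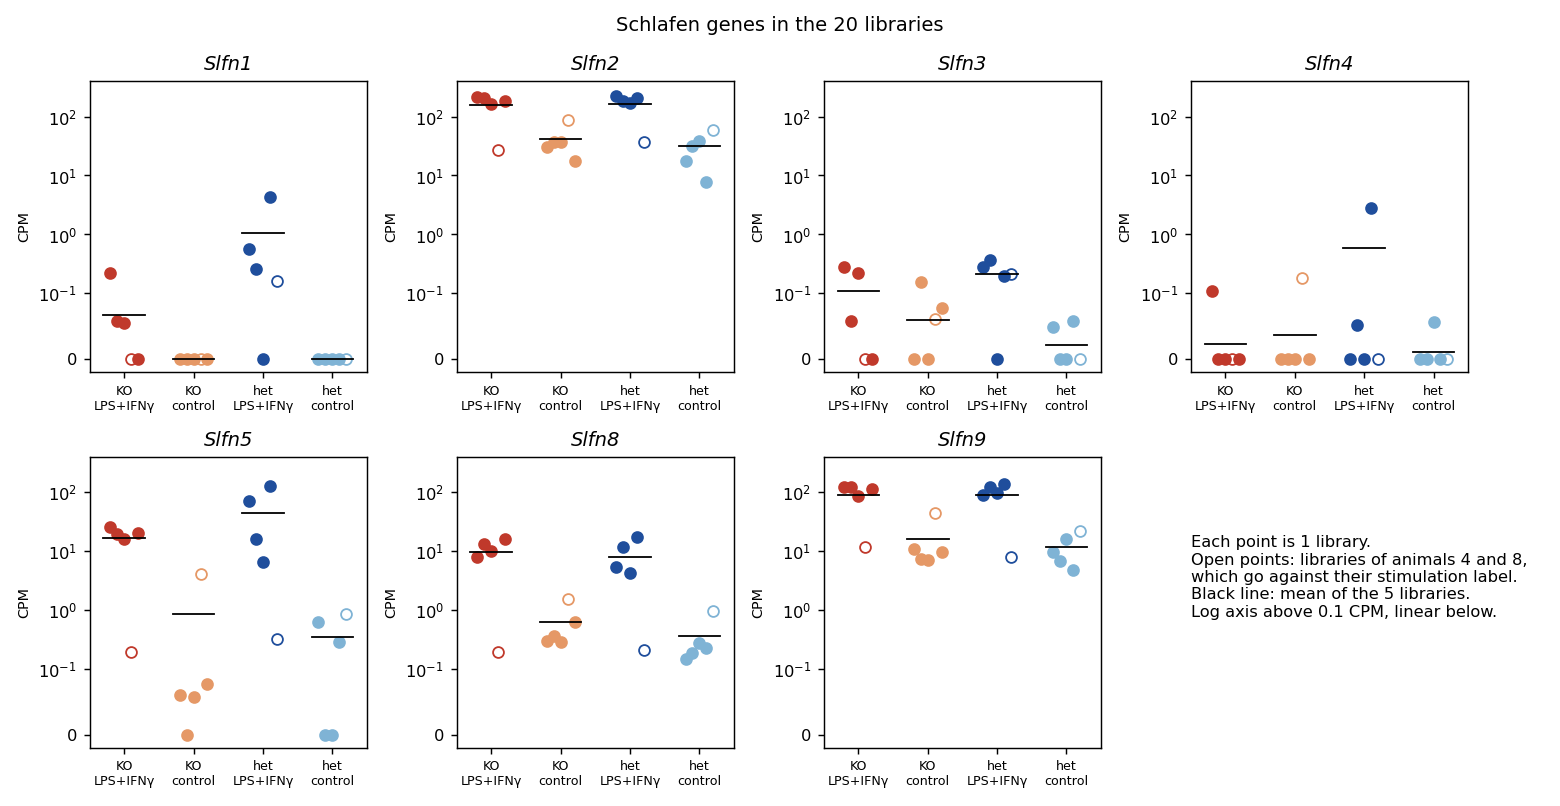
CPM of each of the 7 Schlafen genes in the 20 libraries, by group, on an axis that is logarithmic above 0.1 CPM and linear below; each point is 1 library, black lines are means of 5, and open points are the libraries of animals 4 and 8. Filled points of Slfn2, Slfn5, Slfn8 and Slfn9 separate stimulated from control libraries without overlap, and Slfn1, Slfn3 and Slfn4 stay near the bottom of the axis, with the highest points at 4.36 CPM of Slfn1 and 2.84 CPM of Slfn4 in het LPS+IFNγ replicate 4.

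Counted together, 0 of the 4 tested members were called at adjusted p under 0.05 with 20 libraries in KO or in het cells, and neither was any of the 14568 genes tested (0%). At an unadjusted p under 0.05, edgeR had 1307 genes in KO and 1981 in het cells, all 4 members among them in both. DESeq2 on the same 20 libraries called 115 genes (0.789%) with 2 members (Slfn8, Slfn9) in KO, and 483 genes (3.32%) with all 4 members in het cells, while limma-voom called 0. With only KO LPS+IFNγ replicate 4 left out, edgeR called 1 member (Slfn8) and 152 of 14773 genes in KO cells. In het cells that fit called 4 members and 123 genes. With only het LPS+IFNγ replicate 5 left out, edgeR called 4 members and 744 of 14777 genes in het cells. Without animals 4 and 8, edgeR called 4 of 4 members as higher in KO, against 4.81% of 14630 genes (5.76% in either direction), and 4 of 4 as higher in het cells, against 5.67% (7.15% in either direction). No member was called as lower, against 0.950% of genes in KO and 1.48% in het cells. With the animal as a block on these 16 libraries the calls over all genes in either direction were 1968 in KO (13.5%) and 2724 in het cells (18.6%), against 843 and 1046 without the block, and the 4 members were called in both. Beyond an animal ID the labels name no separate cultures, and p-values therefore reflect only library-to-library spread.

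Within single animals the order held as well. Outside animals 4 and 8, 3 KO and 3 het animals gave 1 stimulated and 1 control library each. Slfn2 was 5.57, 6.88 and 10.7 times as high in the stimulated as in the control library of the 3 KO animals, and 5.81, 12.7 and 26.6 times as high in the 3 het animals. Slfn9 was 11.1 to 17.2 times as high in KO and 9.55 to 29.1 times as high in het animals. Slfn8 was 25.5 to 46.8 times as high in KO and 36.2 to 76.8 times as high in het animals. The widest ratios of Slfn2, Slfn8 and Slfn9 all came from het animal 9, whose stimulated library is het replicate 4 and whose leukocyte markers were the highest of the series in both of its libraries. Animals 5 and 7 gave no pair within 1 genotype.

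**Figure D2:**
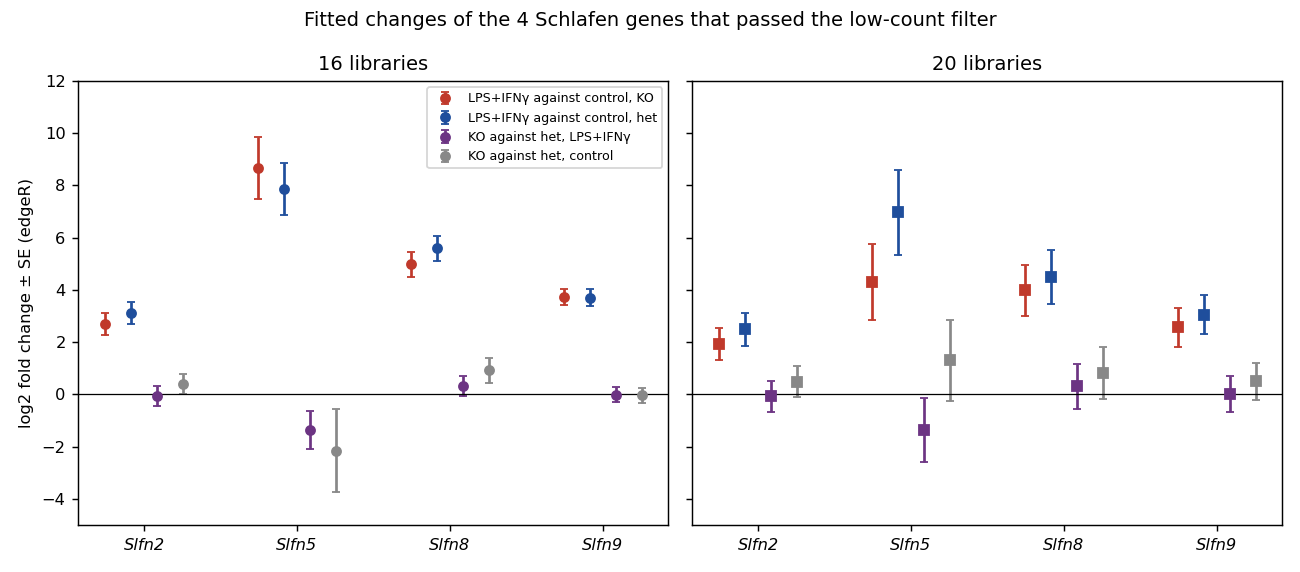
Fitted log2 fold change ± SE (edgeR) of Slfn2, Slfn5, Slfn8 and Slfn9 in 4 comparisons, with 16 libraries (animals 4 and 8 left out) and with all 20. The stimulated-against-control changes lie between 2.69 and 8.66 with 16 libraries and between 1.95 and 6.97 with 20, and every KO-against-het value lies within 2 of 0 except Slfn5 in control cells with 16 libraries.

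No Schlafen gene differed between KO and het cells by the test, in either condition, and no gene of the whole table was called (0% of 14568 genes with 20 libraries and 0% of 14630 with 16). At an unadjusted p under 0.05, edgeR had 366 genes in stimulated and 499 in control cells with 20 libraries, and none of the 4 members was among them. DESeq2 called 0 genes in stimulated and 2 in control cells, and limma-voom called 0 in both. With 16 libraries edgeR had 787 genes in stimulated and 774 in control cells at an unadjusted p under 0.05. Without animals 4 and 8, stimulated Slfn2 averaged 190 ± 22.5 CPM in KO and 197 ± 24.2 CPM in het cells (SD, n = 4 each), a log2 difference of -0.05 with a 95% interval of -0.88 to 0.77. Stimulated Slfn9 averaged 111 ± 17.2 CPM in KO and 112 ± 22.0 CPM in het cells, and the interval of its log2 difference was -0.62 to 0.60. Stimulated Slfn8 averaged 11.8 ± 3.47 CPM in KO and 9.75 ± 6.26 CPM in het cells, with an interval of -0.51 to 1.12. With all 20 libraries the log2 differences in stimulated cells were -0.07 (95% interval -1.31 to 1.17) for Slfn2, 0.0045 (-1.443 to 1.452) for Slfn9 and 0.31 (-1.48 to 2.10) for Slfn8. These intervals leave room for differences in either direction, and they do not show that the genotypes were alike.

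Among the 4 tested members, Slfn5 had the largest fitted difference between stimulated KO and het cells, and it did not pass the test. Without animals 4 and 8 it averaged 20.5 ± 3.89 CPM in KO and 54.4 ± 54.8 CPM in het cells, a log2 difference of -1.36 ± 0.71 (95% interval -2.89 to 0.16, edgeR adjusted p = 0.748), and with all 20 it was -1.36 ± 1.22. Leaving out single libraries moved this difference between -1.74 and -0.64, and with the animal as a block it was 0.97 ± 1.5. That blocked value rests on animals 5 and 7, which are listed under both genotypes although an animal has 1, so their genotype or animal labels are doubtful. All other KO-against-het values with 16 or 20 libraries include their libraries. Without animals 4, 5, 7 and 8, a choice made after seeing the data, the Slfn5 difference was -1.64 ± 0.64 (edgeR adjusted p = 0.763), and no member was called. Het replicates 4 and 1, at 125 and 70.1 CPM, were above all 4 of these KO libraries, and het replicates 2 and 3, at 16 and 6.49 CPM, were below all 4. The high replicates were the same 2 stimulated libraries whose leukocyte markers summed to 244 and 69.5 CPM, against at most 21.3 CPM in any other library labelled LPS+IFNγ, and the part of leukocyte RNA in the Slfn5 level was not tested. The matching control libraries of animals 9 and 1 had 379 and 97.5 CPM of leukocyte markers with 0.288 and 0.637 CPM of Slfn5. These levels were low, but they came from 5 and 13 counts, which were all 18 Slfn5 counts of the het controls outside animal 4. Each KO control outside animal 8 had at most 1 count of Slfn5. The part of leukocyte RNA in these control counts was not tested either.

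In control cells the KO-against-het log2 differences without animals 4 and 8 were 0.39 ± 0.39 for Slfn2, -0.04 ± 0.30 for Slfn9, 0.92 ± 0.49 for Slfn8 and -2.16 ± 1.58 for Slfn5, and edgeR gave adjusted p of at least 0.891. With all 20 libraries they were 0.48, 0.50, 0.82 and 1.30, so the sign of Slfn5 and of Slfn9 turned with those libraries. The difference of the stimulation response, KO minus het, was not called for any member with either set of libraries. It was -0.44 ± 0.55 for Slfn2, 0.79 ± 1.62 for Slfn5, -0.61 ± 0.61 for Slfn8 and 0.03 ± 0.41 for Slfn9 on the log2 scale with 16 libraries (edgeR adjusted p = 1.00 each), against 0 of 14630 genes called and 224 at an unadjusted p under 0.05.

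The weakly expressed members gave counts rather than fold changes. Slfn1 had 4, 1, 1, 0 and 0 counts in KO libraries labelled LPS+IFNγ and 0 in all 5 KO controls. In het libraries labelled LPS+IFNγ it had 10, 5, 0, 66 and 3 counts, against 0 in all 5 het controls, and 66 of those 84 counts came from replicate 4. The pooled het level was at least 28.7-fold higher than a floor of 3 counts over the 5 controls, and at least 7.44-fold higher without replicate 4. With 5 libraries a group, p was 0.167 in KO and 0.0476 in het by exact permutation of CPM (two-sided). With 4 a group the exact p was 0.143 in both, where 0.0286 is the smallest possible. Slfn1 was detected in 3 of 5 KO and 4 of 5 het libraries labelled LPS+IFNγ, and in none of the 10 controls.

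Slfn4, the myeloid-associated member, had 44 counts in the 5 het libraries labelled LPS+IFNγ, of which 43 came from replicate 4 (2.84 CPM), and 1 count in the het controls. In KO cells it had 2 counts in libraries labelled LPS+IFNγ and 3 in controls. For KO the exact permutation p was 1, and for het 0.722. Between stimulated KO and het cells of 20 libraries, the exact p was 0.103 for Slfn1 (6 against 84 counts), 0.722 for Slfn4 (2 against 44 counts) and 0.286 for Slfn3 (10 against 19 counts). Slfn1 and Slfn4 were thus highest in the stimulated library of animal 9, the one with 244 CPM of leukocyte markers. Both were at 0 in the control library of that animal, where the markers summed to 379 CPM, 241 of them from Lyz2. In the stimulated library Lyz2 was at 106 CPM, and the other markers differed in both directions. Adgre1 was at 30.6 CPM in the stimulated and 7.49 CPM in the control library, and Csf1r at 19.9 and 45.4 CPM. The part of leukocyte RNA in these counts was not tested. Slfn3 stayed at or below 0.364 CPM in every library, with 10 counts in KO stimulated-labelled libraries, 5 in KO controls, 19 in het stimulated-labelled libraries and 2 in het controls (exact permutation p = 0.524 in KO and 0.0476 in het cells, and 0.371 and 0.143 without animals 4 and 8). These p-values belong to 12 such tests for each set of libraries and were not adjusted. Slfn3 and Slfn4 transcripts share 15.1% of the 31-base words of Slfn3, so their few counts could be split between them. The far more abundant Slfn2 shares 1.32% of the words of Slfn3 and 2.86% of those of Slfn4. Whether Slfn2 added to their counts was not tested.

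**Figure D3:**
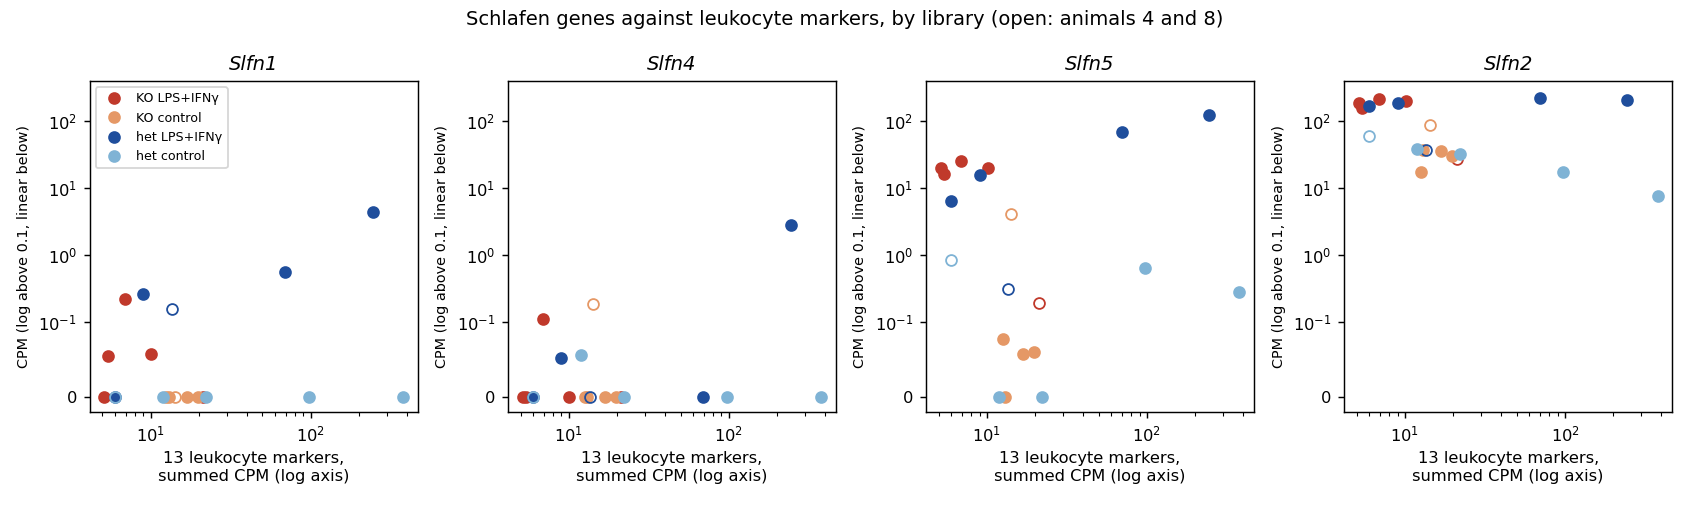
CPM of Slfn1, Slfn4, Slfn5 and Slfn2 against the summed CPM of 13 leukocyte markers in the 20 libraries, coloured by group, with open points for animals 4 and 8 (horizontal axis logarithmic, vertical axis logarithmic above 0.1 CPM). Among stimulated libraries, the one at 244 CPM of leukocyte markers is the highest for Slfn1, Slfn4 and Slfn5, but not for Slfn2. Slfn8 and Slfn9, not drawn here, were also highest in that library, at 17.7 and 138 CPM.

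Compared per length of the longest annotated coding transcript, Slfn2 supplied most of the family's transcript level in every library. Its share of the summed CPM per kb of the 7 members was 81.6% ± 0.911 in stimulated KO and 90.8% ± 4.46 in control KO libraries, and 79.4% ± 6.2 in stimulated het and 87.9% ± 4.73 in control het libraries (SD, n = 4 each, without animals 4 and 8). Slfn9 came next, at 13.7% ± 0.674 in stimulated KO and 8.40% ± 3.94 in control KO libraries, and 13% ± 2.46 in stimulated het and 11.1% ± 3.84 in control het libraries. The shares of Slfn9 in stimulated and control libraries overlapped in both genotypes. With all 20 libraries the Slfn2 share was 83.1% ± 3.23 in stimulated and 89.8% ± 4.49 in control KO libraries, and 82.1% ± 8.13 in stimulated and 88.2% ± 4.18 in control het libraries (n = 5 each). Slfn5 and Slfn8 could not be ordered in stimulated cells, with 3.43 ± 0.651 and 2.95 ± 0.865 CPM per kb in KO and 9.10 ± 9.17 and 2.43 ± 1.56 CPM per kb in het libraries. The lowest Slfn2 share, 70.4%, was in het LPS+IFNγ replicate 4, where Slfn5 reached 11.8%.

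**Figure D4:**
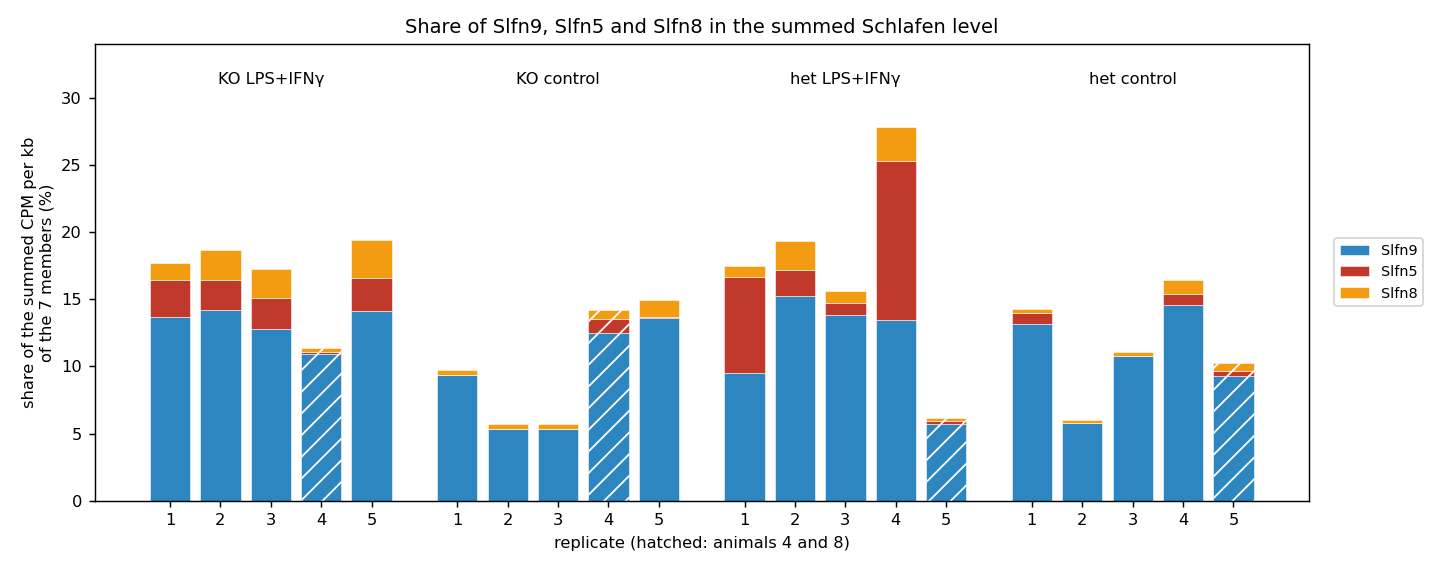
Share of Slfn9, Slfn5 and Slfn8 in the summed CPM per kb of the 7 Schlafen genes (%), stacked, for each library by group and replicate; hatched bars are animals 4 and 8, and nearly all of the remainder is Slfn2. Slfn9 is the largest of the 3 shares in every library, and the Slfn5 share stands out in het LPS+IFNγ replicates 4 and 1, at 11.8% and 7.10%.

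The spread between stimulated libraries differed among members. Without animals 4 and 8, the coefficient of variation in stimulated cells was 11.8% in KO and 12.3% in het cells for Slfn2, and 15.5% in KO and 19.6% in het cells for Slfn9. It was 29.3% in KO and 64.1% in het cells for Slfn8, and 19.0% in KO and 101% in het cells for Slfn5. With all 20 libraries it was 47.8% in KO and 45% in het cells for Slfn2, 51.4% and 55.1% for Slfn9, 63.2% and 87.9% for Slfn8, and 58.9% and 122% for Slfn5. Spearman correlations between pairs of the 4 members over the 20 libraries, which share the stimulation contrast and the sequencing depth of each library, ranged from 0.786 (Slfn2 with Slfn5) to 0.868 (Slfn8 with Slfn9). The genes whose log2 CPM ranked the 20 libraries most like a member were, for Slfn5, Oas2 (rho 0.966), Zcchc2 and Pcgf5, and for Slfn9, Ube2l6 (0.958), Ifit1 and Parp12. For Slfn2 they included Npc2 (0.959) and Psmd4, and for Slfn8 they were Olfr753-ps1 (0.959), Enpp4 and Nub1.

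**Figure D5:**
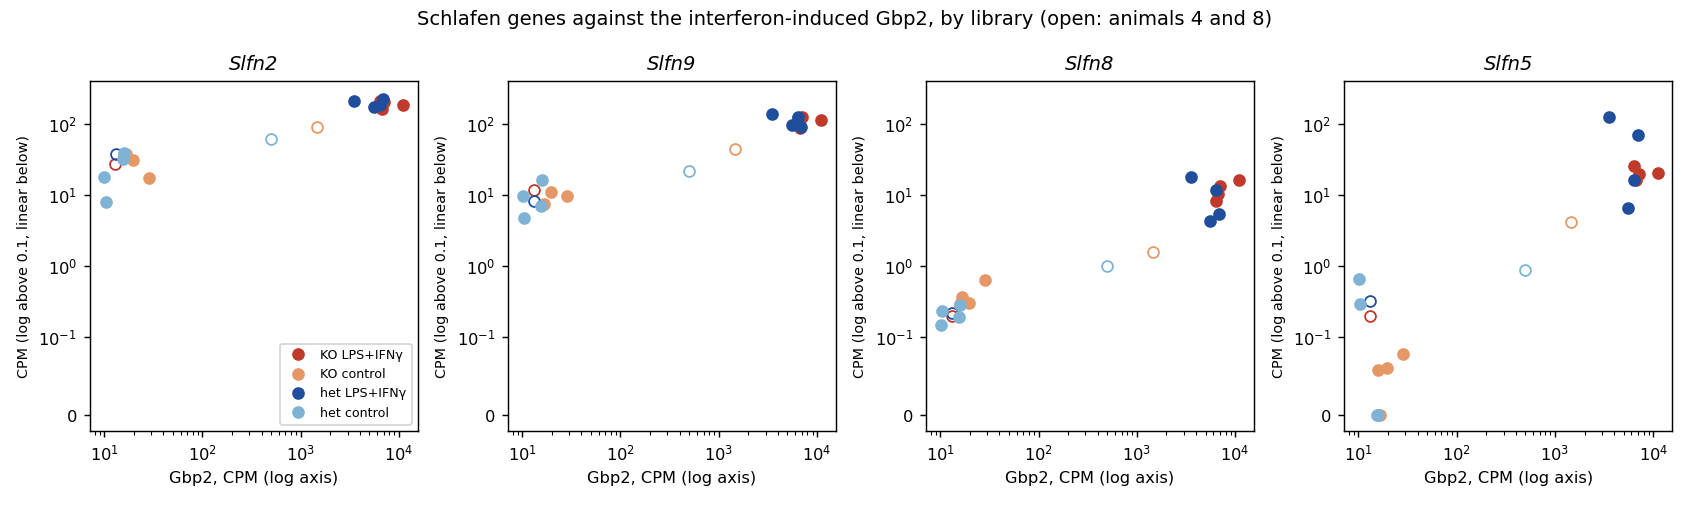
CPM of Slfn2, Slfn9, Slfn8 and Slfn5 against CPM of the interferon-induced Gbp2 in each of 20 libraries (horizontal axis logarithmic, vertical axis logarithmic above 0.1 CPM), coloured by labelled group. The open points of animals 4 and 8 labelled LPS+IFNγ lie among the controls at 13 and 13.1 CPM of Gbp2, and those labelled control lie between the groups at 1472 and 496 CPM of Gbp2.

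The wider interferon pathway moved in the same libraries. Of 16 tested interferon signalling genes, 11 rose in KO and 11 in het cells without animals 4 and 8, and none fell. Over all tested genes of that fit, 4.81% were called as higher in KO and 5.67% in het cells. The median log2 fold change of the signalling genes was 1.87 in KO and 1.78 in het cells, against -0.01 and -0.03 over all tested genes. Stat2, which carries type I interferon signals, rose by 3.81 ± 0.22 in KO and 3.87 ± 0.22 in het cells on the log2 scale, and Irf1, a transcription factor gene, by 4.98 ± 0.32 and 5.01 ± 0.32 (edgeR adjusted p at most 9.85e-08). The subunit genes of the IFNγ receptor did not pass, with Ifngr1 at -0.43 in KO and -0.03 in het cells and Ifngr2 at 0.38 and 0.44.

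Of 21 antiviral interferon-stimulated genes, 20 rose in KO and 21 in het cells, with medians of 5.83 and 6.39. The shares of all tested genes called as higher were again 4.81% in KO and 5.67% in het cells. Zbp1, a sensor of Z-form nucleic acid, was at 215 to 299 CPM in stimulated and 0 to 0.155 CPM in control KO libraries, and at 227 to 381 CPM in stimulated and 0 to 0.169 CPM in control het libraries. Isg15, a ubiquitin-like modifier, rose by 5.83 ± 0.47 in KO and 6.39 ± 0.48 in het cells. Oasl2, of the oligoadenylate synthetase family, rose by 6.84 ± 0.57 in KO and 7.11 ± 0.58 in het cells, and Oasl1 missed the threshold in KO cells (3.37 ± 1.12, edgeR adjusted p = 0.109). All 14 IFNγ target genes rose in both genotypes, with medians of 8.10 in KO and 8.34 in het cells (8.10 and 7.72 with the 2 genes at 0 in all controls of a genotype set at a floor of 3 counts). This list includes Nos2 and Gbp2, by which animals 4 and 8 were set aside. The rise of Nos2 and Gbp2 without those animals followed from that choice and is no separate result. Tap1, a peptide transporter, rose by 4.59 ± 0.15 in KO and 4.78 ± 0.15 in het cells, Gbp3 by 8.57 ± 0.34 and 8.84 ± 0.35, and Psmb9, an immunoproteasome subunit, by 7.55 ± 0.31 and 7.36 ± 0.30. With all 20 libraries edgeR called 0 genes of these 3 lists in either genotype, and the medians were 1.27 in KO and 1.30 in het cells for the signalling, 3.36 and 4.99 for the antiviral and 3.76 and 5.07 for the IFNγ target genes. In both genotypes with 16 libraries, the log2 fold changes of Slfn2, Slfn9 and Slfn8 lay between the medians of the signalling and the antiviral genes. Slfn5, at 8.66 in KO and 7.87 in het cells, lay above the antiviral medians. Its controls held only 3 counts in KO and 18 in het cells, so these 2 values are uncertain.

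A list of genes from processes linked to Schlafens, not of their targets, showed at most 1 called change. Without the animal block, none of 11 genes of transfer RNA cleavage, DNA replication and growth arrest was called in KO or het cells with 16 or 20 libraries. Over all tested genes, 5.76% in KO and 7.15% in het cells were called with 16 libraries, and 0% with 20. A count of 0 among 11 genes is near these shares and does not show a lack of response. The median of the list was 0.05 in KO and 0.21 in het cells without animals 4 and 8. Ang, the nuclease angiogenin that cuts transfer RNAs, was at 0.52 ± 0.37 in KO and 0.55 ± 0.36 in het cells. Its inhibitor gene Rnh1 was at 0.29 ± 0.14 in KO and -0.04 ± 0.14 in het cells, and Cdkn1a, which encodes a cell cycle inhibitor, at -0.02 ± 0.22 and 0.15 ± 0.22. With the animal as a block on 16 libraries, 1 of the 11 was called, Top2a, a DNA topoisomerase gene of dividing cells, which rose by 1.06 ± 0.21 in het cells (edgeR adjusted p = 0.0125), against 18.6% of all genes called in that fit. RNA levels do not measure tRNA cleavage or protein activity.

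Of the 10 nearest named protein-coding neighbours of the cluster, 5 on each side, 6 were tested in KO and het cells with 16 libraries. None of the 6 was called as higher, against 4.81% of all tested genes in KO and 5.67% in het cells. A count of 0 among 6 genes is near these shares, so it does not set the neighbours apart from other genes. Rad51d, a recombination gene, was at 0.21 ± 0.21 in KO and 0.32 ± 0.21 in het cells. Rasl10b fell in het cells (-1.97 ± 0.53, edgeR adjusted p = 0.0368), against 1.48% of all genes called as lower, and was at -0.94 ± 0.52 in KO cells. With 20 libraries it was at -1.56 ± 0.48 in het cells and was not called (edgeR adjusted p = 0.153). The other Schlafen genes of the annotation were hardly detected. Slfn14, an endoribonuclease gene in the same chromosomal stretch, had 1 count in each of 2 libraries. Slfn10-ps had 21 counts, all in KO control replicate 2, and the more distant relative Slfnl1 had at most 2 counts in a library.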

How the data were processed

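RNA of 20 libraries was measured with a directional kit, per the labels' protocols, and the submitters' processing notes list the build GRCm39, Salmon 1.10.2, DESeq2 1.45.3, R 4.4.1 and FastQC 0.11.9 without roles. The authors deposited estimated counts per Ensembl gene ID, all of them whole numbers, which were used as counts. No source used here gives the strand setting or how transcripts were summed. Symbols came from GENCODE M21 (GRCm38), which matched 51425 of 55891 IDs (92.0%) with 98.8% of counts. The members, lists and left-out libraries were chosen with earlier results of these data known.

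CPM used library totals, and CPM per kb the longest coding transcript. All genes were fitted together with edgeR 4.0.16 (quasi-likelihood, TMM, filterByExpr, robust, 4 group means, R 4.3.3), with Benjamini-Hochberg adjustment and calls under 0.05, checked on simulated data. DESeq2 1.42.0, limma 3.58.1 (voom), other filters and scaling, left-out libraries and replicate blocks were alternatives. Exact permutation tests served members under the filter. Genes were named as all members, up to 3 per list by lowest p, and the 3 most correlated per member. Selected neighbours and single list genes (Ifngr1, Ifngr2, Oasl1, Ang, Rnh1, Cdkn1a, Top2a) were named after their values were seen, and some genes chosen by the rule are left unreported.

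The labels give an animal ID, and each ID is listed for 1 pair of libraries. The pairs listed for animals 5 and 7 span both genotypes, so it is doubtful that each came from 1 animal. They are counted among the pairs here, with correlations of 0.127 and 0.398 in 16 libraries. After removal of group means, 8 of 10 pairs correlated above 0.1 with 20 libraries (-0.298 to 0.623), and 8 of 8 with 16 libraries (0.127 to 0.718). Intervals on counts cover counting error only.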

Additional observations from a re-analysis of the deposited data

Results flagged for a closer look

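In groups of 5 libraries, a library was singled out when its gap to the nearest other exceeded 0.71 of the group's range (Dixon's 95% criterion). Of 26 combinations of member and group with any spread, 12 met it. For normally distributed values chance alone does so in about 1 group in 20, a rate that does not apply to counts near 0. For Slfn4 in 3 groups, 4 of 5 libraries were at 0, so that the gap equals the range by construction.

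Of these, 7 were libraries of animals 8 and 4. The library labelled KO LPS+IFNγ replicate 4 had 27.4 CPM of Slfn2, below the others. The library labelled KO control replicate 4 stood above the other KO controls with 88.6 CPM of Slfn2, 0.185 CPM of Slfn4, 4.07 CPM of Slfn5, 1.54 CPM of Slfn8 and 44.7 CPM of Slfn9. The library labelled het control replicate 5 had 0.974 CPM of Slfn8, above the other het controls. All 3 go against their stimulation label in Nos2 and Gbp2.

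Het LPS+IFNγ replicate 4 stood apart with 4.36 CPM of Slfn1 and 2.84 CPM of Slfn4, and had 244 CPM of leukocyte markers. The part of leukocyte RNA in these values was not tested. KO LPS+IFNγ replicate 1 had 0.223 CPM of Slfn1 and 0.112 CPM of Slfn4, from 4 and 2 counts. Het control replicate 3 had 0.0564 CPM of Slfn4, from 1 count.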

How the results depend on the processing

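The stimulation calls depended on the libraries kept. Without animals 4 and 8, 4 members and 843 genes were called in KO cells and 4 members and 1046 genes in het cells. With a replicate block by animal on those 16 libraries it was 4 members and 1968 genes in KO, and 4 members and 2724 genes in het cells. With all 20, the block by animal, the block by replicate number and leaving out animals 5 and 7 left the count at 0. Leaving out 1 of 20 libraries gave 0 to 1 members and 0 to 152 genes in KO, and 0 to 4 members and 0 to 744 genes in het cells. The counts above 0 came without KO LPS+IFNγ replicate 4 (1 member, 152 genes in KO, 4 members, 123 genes in het cells) and without het LPS+IFNγ replicate 5 (4 members, 744 genes in het cells). DESeq2 on 20 libraries called 2 members and 115 genes in KO, 4 members and 483 genes in het cells, 2 genes between KO and het controls and 1 gene for the difference of responses. Further alternatives were chosen after seeing the data. On 16 libraries, DESeq2, its size factors, a fit of 2 groups only and leaving out each library in turn gave 4 members in each genotype, and limma-voom gave 3 in each. Without animals 4, 5, 7 and 8 it was 4 members in each. Of 14630 genes with 16 libraries, DESeq2 called 949 as higher and 372 as lower in KO, and 1143 and 532 in het cells. Its size factors gave 684 and 152 in KO, and 820 and 240 in het cells. Limma-voom gave 617 and 124 in KO, and 719 and 206 in het cells. The fit of 2 groups gave 1046 and 475 of 13841 genes in KO, and 398 and 40 of 13871 in het cells.

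No stimulation fold change turned its direction, and all reversals were in differences between KO and het or between their responses, where edgeR called no member. For Slfn9 in stimulated cells (0.0045 with 20 libraries), the log2 difference was -0.0067 with DESeq2 size factors, -0.0070 by DESeq2, -0.0054 without a filter, -0.0063 with the stricter filter, -0.0064 without animals 4 and 8, -0.83 with the animal block and -0.85 with both, and -0.30 to 0.28 leaving out 1 library. In control cells it was -0.040, -0.44 and -0.47 under those last 3 settings and -0.39 to 0.83 leaving out 1. For Slfn5 in control cells it was -0.22 by limma-voom, -2.16 without animals 4 and 8 and -2.74 to 1.87 leaving out 1, and in stimulated cells 0.18 with the animal block and 0.97 with both. The difference of responses was 0.79 for Slfn5 and 0.033 for Slfn9 without animals 4 and 8, and 0.66 for Slfn5 with both. Leaving out 1 library it spanned -3.25 to 1.37 for Slfn5, -1.29 to 0.17 for Slfn8 and -0.84 to 0.39 for Slfn9. For stimulated cells it spanned -0.34 to 0.19 for Slfn2 and -0.018 to 0.78 for Slfn8. The cause was not tested. At 3 counts, depth limits levels under 0.147 to 0.233 CPM, which covers most values of Slfn1, Slfn3 and Slfn4.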
